A study of Mus musculus with 6 samples.

Results

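Igf1, the receptors Igf1r and Insr, the docking protein Irs1 and the binding proteins Igfbp2, Igfbp3, Igfbp4, Igfbp5, Igfbp6 and Igfbp7 were followed in tibialis anterior (TA) muscle, the large dorsiflexor of the lower hindlimb. The 10 genes were chosen by name, and all 10 had a row among the 13226 genes counted. Male C57BL/6 mice aged 8 weeks received AAV6:Yap-shRNA, an adeno-associated viral vector carrying a short hairpin RNA against Yap, by injection into a TA muscle, and muscles were sequenced after 7 days. There were 3 Yap-shRNA and 3 control muscles, the controls being contralateral TA muscles given AAV6:LacZ-shRNA (sample titles call it an empty vector). The comparison asks how lowering Yap, a transcriptional coactivator of the Hippo pathway, alters gene expression in otherwise untreated adult muscle. The hairpin plasmid carried the CMV promoter and eGFP rather than a muscle-specific promoter, and RNA came from the whole muscle. Vessels, connective tissue, nerve and blood cells therefore contributed RNA, and fewer cells of one type cannot be told apart from less RNA per cell.

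Insulin-like growth factor 1 is made by the liver for the circulation and also within muscle. It binds the Igf1 receptor, while insulin binds the closely related insulin receptor. Both are tyrosine kinases that phosphorylate Irs1, which recruits PI3-kinase and so activates Akt, glucose uptake through Glut4 and growth through mTOR. The binding proteins are secreted, hold Igf1 and Igf2 in the extracellular fluid and either limit or prolong their action. Yap acts mainly through the TEAD transcription factors.

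Yap1, the targeted gene (ENSMUSG00000053110; GRCm38 chr9:7931999-8004596, minus strand), was at 71.2, 65.3 and 68.4 CPM (counts scaled to the effective library size) in the control muscles and at 32.0, 23.9 and 39.5 CPM in the Yap-shRNA muscles. Every Yap-shRNA muscle lay below every control muscle. Its log2 fold change was -1.10 with a standard error (SE) of 0.16 (95% interval of the level 36.1 to 59.9% of control), although its adjusted p was 0.436 in edgeR's quasi-likelihood test. Library totals were 11987167 to 12710393 counts, and the biological coefficient of variation was 15.7%. Muscle fibre markers were all present (10 of 10), with summed levels of 132920 to 153247 CPM in control and 125985 to 150702 CPM in Yap-shRNA muscles. The p-values measure only the spread between these muscles.

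None of the 10 genes differed between the groups at an adjusted p under 0.05, and in all 10 the range of the Yap-shRNA muscles overlapped that of the control muscles. Across the table, edgeR (quasi-likelihood F-test, Benjamini-Hochberg adjustment) called 0 of 13226 genes (0%), and 232 genes (1.75%) had an unadjusted p under 0.05. DESeq2 called 5 genes (0.0378%), with 135 (1.02%) at an unadjusted p under 0.05, and edgeR's likelihood ratio test 5 genes (0.0378%), none of them among the 10. The groups did not overlap for 697 genes in the table (5.27%), of which 339 (2.56%) were higher and 358 (2.71%) lower in Yap-shRNA muscles. The adjusted p was 1.00 for each of the 10 in the quasi-likelihood test. An exact two-sided permutation test of 3 against 3 muscles cannot go below 0.1, and it gave 0.3 to 1.0 for these genes. Point estimates were above 0 for 6 genes and below 0 for 4, with a median log2 fold change of 0.03 beside -0.0029 over all genes. Their median absolute log2 fold change was 0.15 beside 0.090 over all genes.

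**Figure D1:**
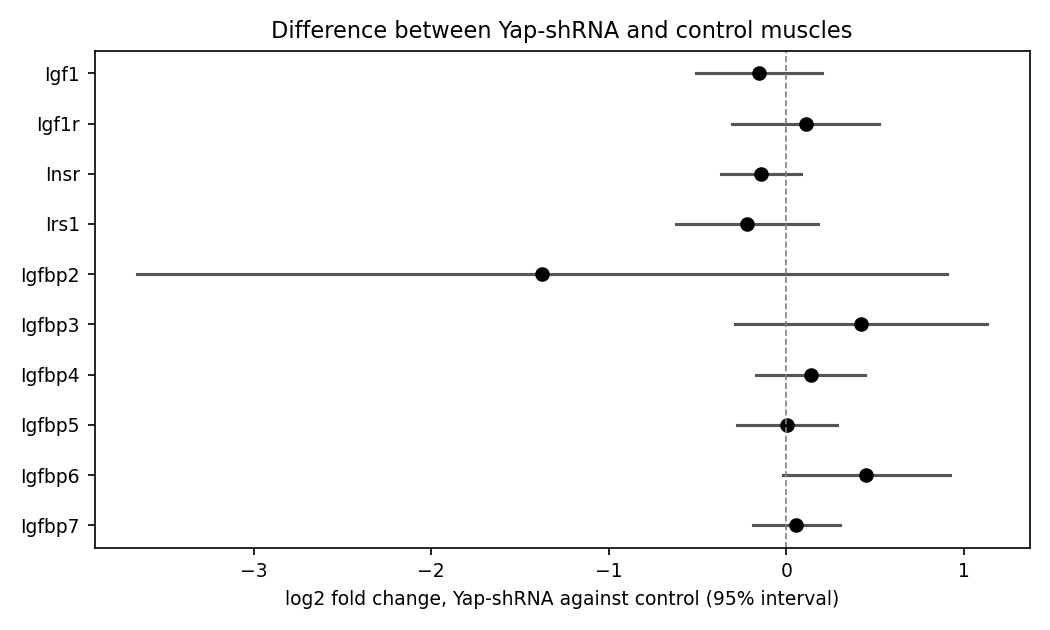
Log2 fold change of the 10 genes in Yap-shRNA against control muscles (3 and 3), with points for the estimate of the edgeR fit and bars for its 95% interval. Every interval spans 0, from the narrow one of Insr (-0.37 to 0.08) to the wide one of Igfbp2 (-3.66 to 0.90).

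Igf1, the ligand (ENSMUSG00000020053; GRCm38 chr10:87858265-87937042, plus strand), has 8 annotated transcripts, all coding, whose reads were summed. It drew 311, 263 and 280 reads in the control muscles and 228, 221 and 327 in the Yap-shRNA muscles. These were 24.2, 22.0 and 23.0 CPM against 19.1, 17.0 and 26.1 CPM. Yap-shRNA muscles 1 and 2 lay below all controls, while Yap-shRNA muscle 3 lay above all of them. The means of 23.1 ± 1.11 and 20.7 ± 4.76 CPM (SD, n = 3 each) gave a log2 fold change of -0.15 (SE 0.16), and the 95% interval ran from 70.3 to 114.8% of the control level. A level lowered to the degree of Yap1 lies outside that interval. The annotated antisense gene Igf1os shares no exon with Igf1.

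The receptors showed little separation. Igf1r (ENSMUSG00000005533; chr7:67952827-68233668, plus strand), which binds Igf1 with high affinity, was at 15.5, 9.45 and 12.1 CPM in control and 14.6, 12.1 and 13.3 CPM in Yap-shRNA muscles. The treated muscles sat within the control range, with a log2 fold change of 0.11 (SE 0.18), which became -0.05 without control muscle 2, the lowest of the 6. Insr, the insulin receptor (ENSMUSG00000005534; chr8:3122061-3279617, minus strand), was at 62.2, 55.1 and 55.1 CPM in control and 56.5, 49.9 and 49.8 CPM in Yap-shRNA muscles. Yap-shRNA muscles 2 and 3 were below every control, and Yap-shRNA muscle 1 was above 2 of the controls. Its log2 fold change was -0.14 (SE 0.10), the narrowest error among the 10 genes, with an interval from 77.5 to 105.7% of control.

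Irs1, the docking protein that links both receptors to PI3-kinase (ENSMUSG00000055980; chr1:82233101-82291416, minus strand), was at 24.1, 15.5 and 16.9 CPM in control muscles. The Yap-shRNA muscles were at 14.2, 17.8 and 16.5 CPM. Control muscle 1 stood alone at the top, and the other 5 muscles were intermixed. A log2 fold change of -0.22 (SE 0.18; interval 65.1 to 113.4% of control) shrank to -0.00069 without control muscle 1. The opposite-strand gene Gm9747 overlaps 30.9% of the Irs1 exon bases, and the strand setting of the counting is not given in the sources used here, so Irs1 counts are uncertain to that extent.

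**Figure D2:**
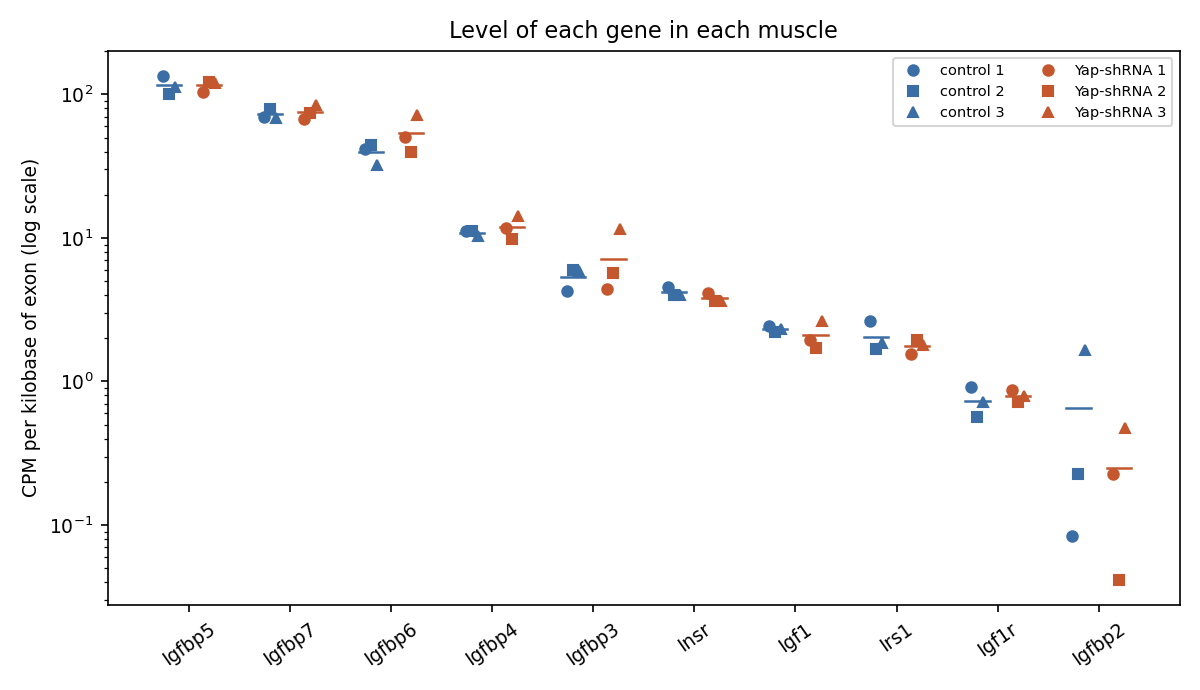
Level of each of the 10 genes in each of the 6 muscles, as CPM per kilobase of exon on a log axis, with blue marks for control, orange marks for Yap-shRNA muscles and a bar for each group mean. The binding proteins Igfbp5, Igfbp7 and Igfbp6 lie highest and Igf1r and Igfbp2 lowest in both groups.

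Levels between genes were set on a common scale by dividing CPM by the length of the annotated exons. In control muscles Igfbp5 stood highest at 115.9 ± 17.1 CPM per kilobase, followed by Igfbp7 at 72.5 ± 5.48, Igfbp6 at 39.5 ± 6.59 and Igfbp4 at 10.9 ± 0.523 (SD, n = 3). Igfbp3 at 5.37 ± 0.969 and Insr at 4.18 ± 0.297 came next, with overlapping ranges. Igf1 at 2.33 ± 0.112 overlapped Irs1 at 2.06 ± 0.503 CPM per kilobase, and Igf1r at 0.736 ± 0.180 overlapped Igfbp2 at 0.651 ± 0.862. All other neighbours in the control order had separate ranges. The order was the same in Yap-shRNA muscles, where the neighbours with overlapping ranges were Igfbp7 and Igfbp6, Igfbp4 and Igfbp3, and Igf1 and Irs1. Transcripts of the insulin receptor thus exceeded those of the Igf1 receptor in every muscle, by 4.90, 7.12 and 5.55 times per kilobase in control and 4.72, 5.03 and 4.56 times in Yap-shRNA muscles. Exon length was that of all annotated transcripts joined, so a gene whose muscle transcript is shorter is placed too low.

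Igfbp5, a binding protein that also attaches to extracellular matrix (ENSMUSG00000026185; chr1:72857932-72874884, minus strand), was the most abundant of the set. It was at 808, 608 and 672 CPM in control and 629, 738 and 727 CPM in Yap-shRNA muscles, with all treated muscles inside the control range. With a log2 fold change of 0.0043 (SE 0.12), it had an interval from 82.5 to 121.9% of control. Its sign turned when single muscles were left out, at -0.08 without control muscle 2, -0.02 without control muscle 3, -0.04 without Yap-shRNA muscle 2 and -0.03 without Yap-shRNA muscle 3.

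Igfbp7, which binds Igfs only weakly and is common in vessel walls (ENSMUSG00000036256; chr5:77349240-77408041, minus strand), was at 84.4, 95.3 and 83.4 CPM in control and 82.1, 89.9 and 101.3 CPM in Yap-shRNA muscles. Its groups were intermixed, with the lowest and the highest value both in Yap-shRNA muscles. It had a log2 fold change of 0.06 (SE 0.11), and one of -0.03 without Yap-shRNA muscle 3. The opposite-strand gene Polr2b overlaps 7.03% of its exon bases. Summed endothelial markers (7 of 7 in the table) were at 403 to 454 CPM in control and 417 to 442 CPM in Yap-shRNA muscles.

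Igfbp6, which prefers Igf2 over Igf1 (ENSMUSG00000023046; chr15:102144362-102149511, plus strand), came closest to a difference. It was at 46.5, 49.6 and 35.6 CPM in control and 56.0, 44.1 and 79.9 CPM in Yap-shRNA muscles. Yap-shRNA muscles 1 and 3 lay above all controls, whereas Yap-shRNA muscle 2 lay among them. The means of 43.9 ± 7.33 and 60.0 ± 18.2 CPM gave a log2 fold change of 0.45 (SE 0.21; interval 98.7 to 189.5% of control), with an unadjusted p of 0.058 and an adjusted p of 1.00 in edgeR's quasi-likelihood test. Without Yap-shRNA muscle 3 the log2 fold change was 0.19.

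Igfbp3, the main carrier of Igf1 in blood (ENSMUSG00000020427; chr11:7206086-7213923, minus strand), was at 13.3, 18.7 and 18.4 CPM in control and 13.8, 17.7 and 35.9 CPM in Yap-shRNA muscles. Only Yap-shRNA muscle 3 left the control range. Its log2 fold change of 0.42 (SE 0.32) became -0.09 without that muscle. Igfbp4, an inhibitory binding protein cleaved by Pappa (ENSMUSG00000017493; chr11:99041244-99054392, plus strand), was at 49.3, 49.2 and 45.3 CPM in control and 51.9, 43.2 and 63.2 CPM in Yap-shRNA muscles. Like Igfbp3, Igfbp4 was highest in Yap-shRNA muscle 3, but Igfbp4 was lowest in Yap-shRNA muscle 2. Its log2 fold change of 0.14 (SE 0.14) became -0.01 without Yap-shRNA muscle 3.

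Igfbp2, a binding protein abundant in liver and in fetal tissue (ENSMUSG00000039323; chr1:72824503-72852474, plus strand), was near the limit of detection. It lies 5457 nucleotides from Igfbp5, which runs in the opposite direction. It drew 2, 5 and 37 reads in control and 5, 1 and 11 reads in Yap-shRNA muscles, and the exact 95% Poisson interval of the 37 reads in control muscle 3 was 26.1 to 51.0, for counting error only. Control muscle 3 stood far above the other 5. The log2 fold change of -1.38 (SE 1.01; interval 7.93 to 187.1% of control) was 0.67 without control muscle 3, so the direction rested on that muscle.

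**Figure D3:**
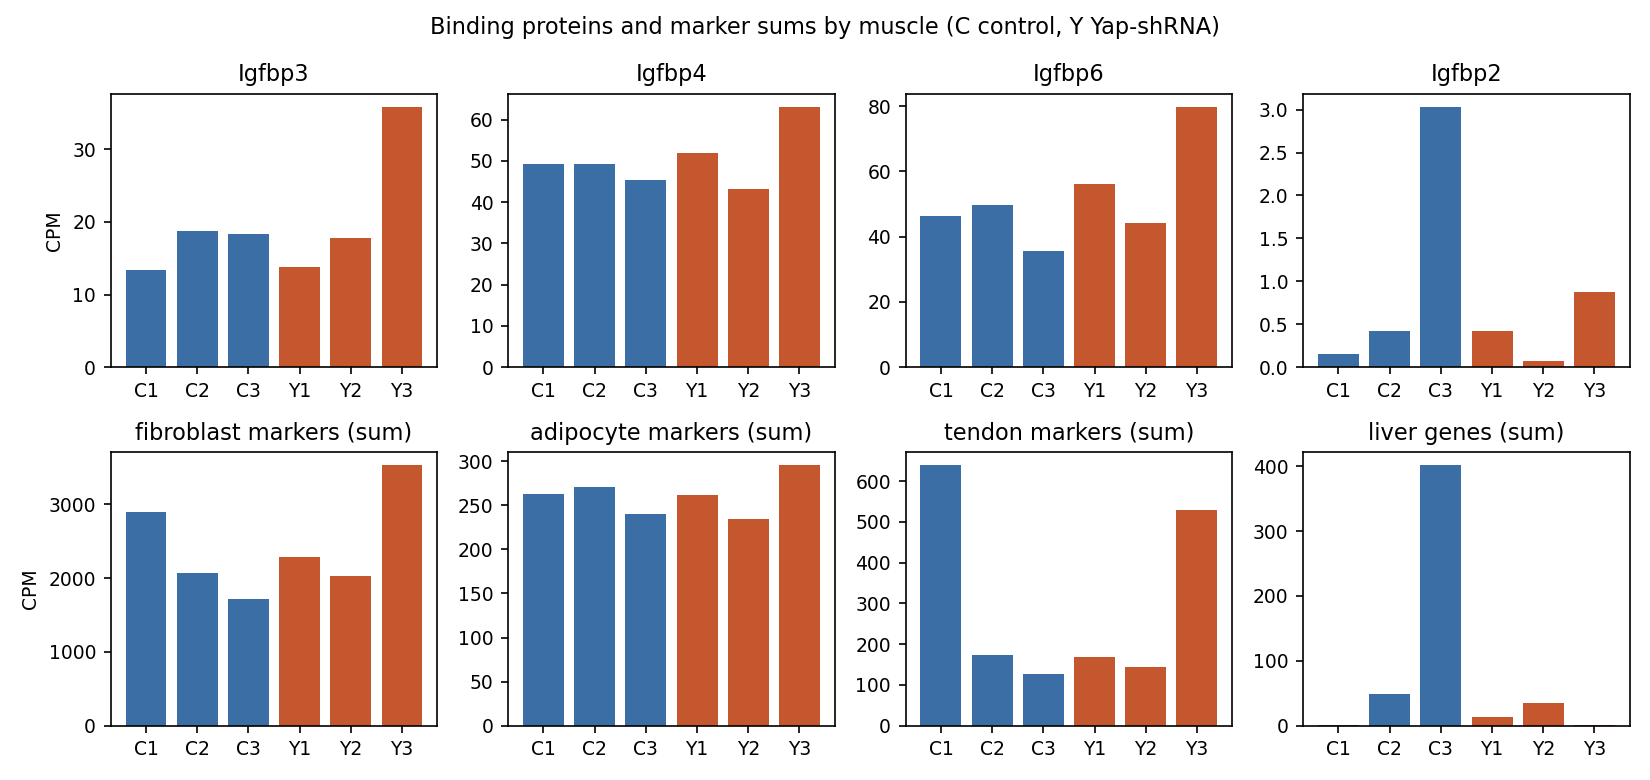
CPM of Igfbp3, Igfbp4, Igfbp6 and Igfbp2 (top) and summed CPM of fibroblast, adipocyte and tendon markers and liver genes (bottom) in each muscle, with C for control in blue and Y for Yap-shRNA in orange. Yap-shRNA muscle 3 is highest for Igfbp3, Igfbp4, Igfbp6, fibroblast markers and adipocyte markers, and control muscle 3 is highest for Igfbp2 and the liver genes.

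Single muscles set much of the spread. Of the 10 genes, 5 were highest in Yap-shRNA muscle 3 (Igf1, Igfbp3, Igfbp4, Igfbp6 and Igfbp7), where 15.4% of all genes peaked, and 4 were highest in control muscle 1 (Igf1r, Insr, Irs1 and Igfbp5), where 22.1% of all genes peaked. Fibroblast, adipocyte and satellite cell markers also summed highest in Yap-shRNA muscle 3, whereas the other marker lists did not. The satellite cell sum of 50.2 CPM in that muscle was mostly Myod1 (41.1 CPM), and Pax7, Myf5 and Vcam1 peaked in control muscles. Fibroblast markers, all 8 of 8 in the table and none at 0, summed to 1715 to 2894 CPM in control and 2031 to 3534 CPM in Yap-shRNA muscles, and 7 of the 8 peaked in Yap-shRNA muscle 3. All 8 had a positive log2 fold change, with a median of 0.24. The fibroblast sum of 2894 CPM, the highest of the controls, was in control muscle 1, where Igfbp3 was lowest at 13.3 CPM. Of 6 adipocyte markers, none at 0, Adipoq, Plin1, Cfd, Cidec and Lep peaked in Yap-shRNA muscle 3. Their log2 fold changes ran from 1.02 for Cfd to 1.44 for Lep, and the list median was 1.08. Adipoq, the adipocyte hormone, drew 205 reads in Yap-shRNA muscle 3 against 19 to 61 in the other muscles. Adipocyte sums were 240.5 to 271 CPM in control and 235 to 296 CPM in Yap-shRNA muscles, but most of each sum was Fabp4 (205 to 258 CPM), which endothelial cells also express and which had a log2 fold change of -0.10. Tendon markers (5 of 6 in the table) were high in control muscle 1 at 639 CPM and in Yap-shRNA muscle 3 at 529 CPM, and at 126 to 174 CPM elsewhere. Their part in the values of these muscles was not tested. Summed levels in control and Yap-shRNA muscles were 31.4 to 42.1 and 31.2 to 50.2 CPM for satellite cell markers (4 of 5 in the table), 635 to 740.1 and 568 to 667 CPM for smooth muscle and pericyte markers (7 of 7), 90.0 to 154 and 112 to 139 CPM for Schwann cell markers (6 of 6), and 120.0 to 203 and 101 to 243 CPM for erythroid markers (5 of 5). No gene of any marker list was called in edgeR's quasi-likelihood test.

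Control muscle 3, where 13.4% of all genes peaked, was highest for Igfbp2 and for all 6 liver genes looked for. Their sums were 0.778, 48.1 and 402 CPM in control and 12.7, 35.3 and 0.399 CPM in Yap-shRNA muscles, and Apoa1, Ttr, Serpina1a and Fgb were at 0 in at least 1 library. All 6 liver genes had a negative log2 fold change, with a median of -3.25. Apart from control muscle 3, the liver sums of the muscles overlapped between the groups. The part of the liver signal in Igfbp2 was not tested. The genes most like Igfbp2 over the 6 libraries, by the mean absolute difference of centred log2 CPM, were Pck1 (0.37), the gluconeogenic enzyme of liver, kidney and fat, Cdo1 (0.47), which oxidises cysteine, and Etnk2 (0.51), an ethanolamine kinase. Pck1 was at 1.95, 2.42 and 18.3 CPM in control and 2.35, 2.38 and 4.55 CPM in Yap-shRNA muscles, with control muscle 3 on top. It was picked for its likeness to Igfbp2, so the shared top muscle is no added likeness. By the same measure Fam171a2 (0.040), Rab23 (0.045), a small GTPase, and Atp9a (0.050) were nearest to Igf1.

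**Figure D4:**
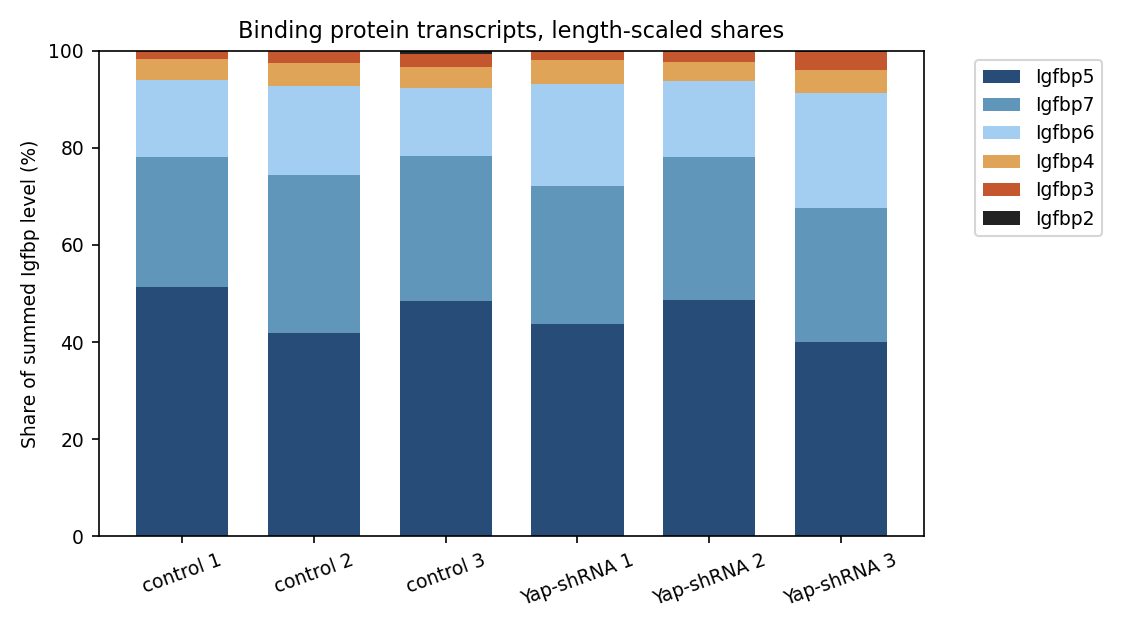
Share of each binding protein in the summed length-scaled level (CPM per kilobase) of the 6 binding proteins, as a percentage, with a bar for each muscle. Igfbp5, Igfbp7 and Igfbp6 fill most of every bar, and the Igfbp5 share runs from 40.0 to 51.4%.

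The make-up of the binding protein pool overlapped between the groups. Igfbp5 supplied 51.4, 41.8 and 48.5% of the summed length-scaled level in control and 43.7, 48.7 and 40.0% in Yap-shRNA muscles, with means of 47.3 ± 4.93 and 44.1 ± 4.38%. Igfbp7 supplied 29.7 ± 2.96 and 28.5 ± 0.905%, and Igfbp6 16.1 ± 2.27 and 20.2 ± 4.07%. The remaining 3 binding proteins were minor, Igfbp4 with 4.44 and 4.50%, Igfbp3 with 2.21 and 2.62% and Igfbp2 with 0.279 and 0.089% in control and Yap-shRNA muscles. The summed level was 262, 242 and 231 CPM per kilobase in control and 239, 252 and 303 CPM per kilobase in Yap-shRNA muscles, again with overlap. Set against Igf1 in the same muscle, the summed level was 107, 109 and 99.4 times that of Igf1 in control and 124, 147 and 115 times in Yap-shRNA muscles. All 3 Yap-shRNA muscles were above all 3 controls in this length-scaled ratio. It was formed after the values were seen and is given with no test. Without the length scaling the groups overlapped in this ratio. For Igfbp5 alone against Igf1 they overlapped too, at 55.1, 45.6 and 48.2 times in control and 54.2, 71.8 and 46.0 times in Yap-shRNA muscles. Among all single genes, 5.27% had groups that did not overlap.

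Promoters are shown because the TEAD factors that carry Yap to DNA recognise the letters GGAATG. RefSeq (GRCm38.p6) gave windows from 250 bases before to 50 after the start for 9 of the 10 genes, with 10 windows in all because Igfbp2 has a pair of starts; Insr had no entry. The 6 letters, on either strand, occurred in 2 of the 10 windows, those of Igfbp5 and Irs1, and in 14.7% of all 32851 windows. In Igfbp5 the match begins 233 bases before the start, on the strand opposite to transcription (CATTCC), and in Irs1 it begins 201 bases before the start. Igfbp6 has the largest positive log2 fold change of the 10 genes, and its window holds no match. That window ends at 102144235, before the GENCODE start of Igfbp6 at 102144362, and the Igf1r window also ends before its GENCODE start. A match is only a description of the letters, and no match says only that they are not in the window searched. The upstream parts of these windows are printed 5′ to 3′ on the gene's strand, for Igfbp5 chr1:72874885-72875115 (minus), for Irs1 chr1:82291440-82291689 (minus) and for Igfbp6 chr15:102143936-102144185 (plus), with the match in capitals. For Igfbp5 the 19 bases next to the RefSeq start are left out because GENCODE places them in an exon, so its printed stretch of 231 bases ends 19 bases before that start.
Igfbp5: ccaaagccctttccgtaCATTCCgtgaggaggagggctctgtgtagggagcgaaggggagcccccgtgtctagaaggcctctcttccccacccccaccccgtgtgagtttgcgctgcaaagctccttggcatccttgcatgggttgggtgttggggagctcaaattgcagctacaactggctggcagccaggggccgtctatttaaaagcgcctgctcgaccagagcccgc
Irs1: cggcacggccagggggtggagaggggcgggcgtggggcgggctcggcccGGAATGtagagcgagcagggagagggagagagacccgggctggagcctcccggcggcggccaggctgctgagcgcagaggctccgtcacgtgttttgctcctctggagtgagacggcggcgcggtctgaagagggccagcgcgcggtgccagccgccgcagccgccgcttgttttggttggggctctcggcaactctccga
Igfbp6: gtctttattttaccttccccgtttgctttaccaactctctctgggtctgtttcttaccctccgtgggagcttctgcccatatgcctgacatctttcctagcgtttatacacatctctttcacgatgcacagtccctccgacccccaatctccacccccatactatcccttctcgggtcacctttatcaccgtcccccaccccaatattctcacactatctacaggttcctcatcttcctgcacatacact

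The genes around these 10 in the pathway were read from 4 lists, of which 69 of 73 genes had a row. None of the 69 passed the same threshold (0 called), 44 had a positive and 25 a negative log2 fold change, and their median log2 fold change was 0.03 beside -0.0029 over all genes. Socs3 was the 1 gene of the 69 with an unadjusted p under 0.05 in edgeR's quasi-likelihood test, beside 232 of all 13226 genes (1.75%). The groups did not overlap for 3 genes, Htra1, Rptor and Sesn2, all higher in Yap-shRNA muscles, which is 4.35% of the list. Of all genes, 5.27% had groups that did not overlap. DESeq2 and the likelihood ratio test also called 0 of the 69.

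**Figure D5:**
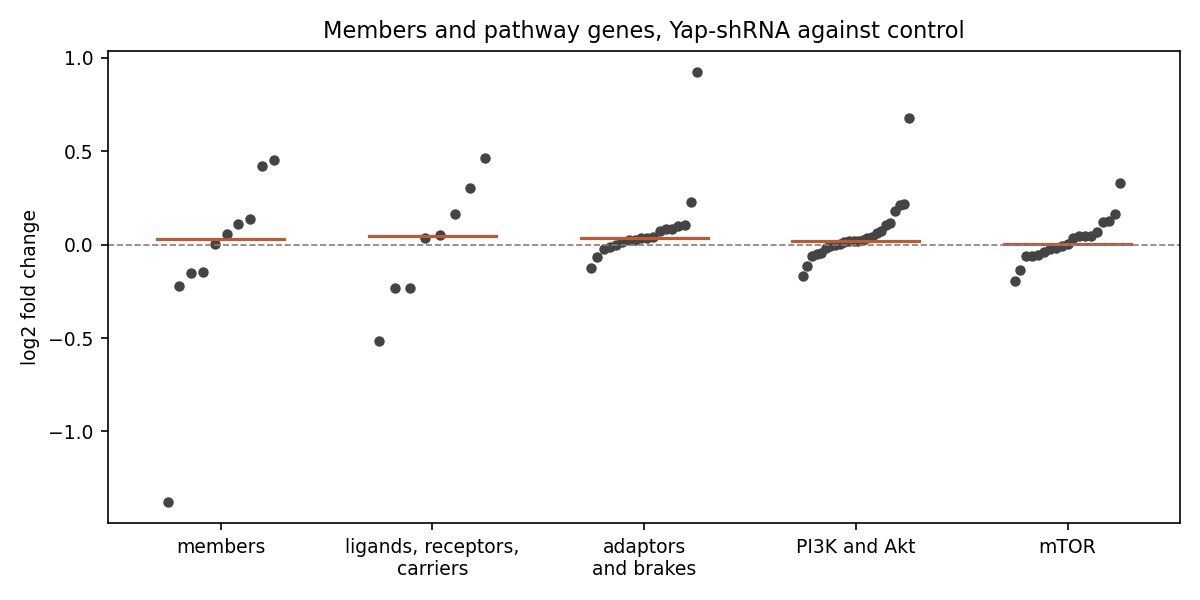
Log2 fold change in Yap-shRNA against control muscles for the 10 genes (members) and for the genes of 4 pathway lists, with a point for each gene and a bar for each median. The medians of the 4 lists lie between 0.0057 and 0.04, and Socs3 is the highest point at 0.92.

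Of the ligands, receptors and carriers, 8 of 12 had a row (Insrr, Igfbp1, Pappa and Pappa2 were not analysed here), with 5 positive and 3 negative log2 fold changes. Igf2, the fetal growth factor that also binds Igf1r, was at 55.8, 39.0 and 29.0 CPM in control and 26.7, 23.0 and 37.1 CPM after Yap-shRNA. Yap-shRNA muscles 1 and 2 lay below all controls, and Yap-shRNA muscle 3 lay among them. Its log2 fold change of -0.52 (SE 0.24) had an unadjusted p of 0.062 and an adjusted p of 1.00 in edgeR's quasi-likelihood test. Htra1, a secreted protease that cleaves binding proteins, was at 29.4, 28.7 and 28.6 CPM in control and 29.8, 32.9 and 34.4 CPM after Yap-shRNA (log2 fold change 0.17). Stc2, an inhibitor of Pappa, had a log2 fold change of 0.47 and Igf2r, which clears Igf2, one of 0.04.

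All 18 receptor adaptors and brakes were measured, 13 with a positive and 5 with a negative log2 fold change. Socs3, a cytokine-induced protein that also blocks insulin receptor signalling, was at 6.30, 4.10 and 4.18 CPM in control and 5.29, 10.1 and 12.3 CPM in Yap-shRNA muscles. Yap-shRNA muscles 2 and 3 were above all controls, and Yap-shRNA muscle 1 was not. Its log2 fold change was 0.92 (SE 0.31), with an unadjusted p of 0.015 and an adjusted p of 1.00 in edgeR's quasi-likelihood test. Summed macrophage markers (10 of 10, none at 0) were at 95.6 to 233 CPM in control and 166 to 217 CPM in Yap-shRNA muscles. All 10 had a positive log2 fold change, with a median of 0.34. The values ran from 0.09 (SE 0.39) for Adgre1 to 0.72 (SE 0.36) for Cd68. The highest sum was in control muscle 1, and 0 of the 10 markers were called. Their part in the Socs3 values was not tested. Irs2, the sister of Irs1, was at 25.7, 13.2 and 21.0 CPM in control and 26.0, 16.7 and 18.7 CPM after Yap-shRNA, so that the groups overlapped at a log2 fold change of 0.03. Among inhibitors the log2 fold change was -0.13 for Grb10 and -0.07 for Grb14, adaptors that inhibit the receptors, 0.09 for the phosphatase Ptpn1 and 0.03 for Enpp1, an inhibitor of the insulin receptor. Frs2, a docking protein of fibroblast growth factor receptors, had a log2 fold change of 0.23.

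The PI3-kinase and Akt branch (24 of 24 measured, 16 positive and 8 negative) had a median log2 fold change of 0.02. Slc2a4, the insulin-responsive glucose transporter Glut4, was at 624, 834 and 794 CPM in control and 699.9, 743 and 737 CPM in Yap-shRNA muscles, all treated muscles being inside the control range. Tbc1d1, an Akt substrate that restrains Glut4 traffic, had a log2 fold change of 0.21. Further down, it was 0.10 for Akt1, 0.0045 for Akt2, the isoform central to insulin-stimulated glucose uptake, and -0.0078 for Foxo1, which Akt keeps out of the nucleus. Pik3cg, the PI3-kinase subunit of leukocytes, was the highest of the branch at 0.68 (SE 0.47). It drew only 19, 9 and 4 reads in control and 14, 21 and 17 reads in Yap-shRNA muscles, and the groups overlapped. Of the mTOR branch, 19 of 19 were measured, with 10 positive and 9 negative log2 fold changes. Sesn2, a stress-induced inhibitor of mTOR, was at 4.05, 4.01 and 3.77 CPM in control and 4.95, 5.14 and 4.78 CPM in Yap-shRNA muscles. The groups did not overlap for Sesn2, with a log2 fold change of 0.33 (SE 0.16) and an adjusted p of 1.00 in edgeR's quasi-likelihood test. Rptor, the scaffold of the growth-promoting mTOR complex, was at 40.5, 39.0 and 38.2 CPM in control and 42.2, 43.7 and 42.5 CPM after Yap-shRNA (log2 fold change 0.13). Rps6kb2, an S6 kinase, had a log2 fold change of -0.13.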

How the data were processed

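Polyadenylated RNA of 6 whole TA muscles was sequenced (TruSeq libraries), and the authors deposited raw read counts per gene, not normalised. Per the labels, bcl2fastq 2.20.0.422 and the build GRCm38 were used, while the aligner, the counting program and its strand setting are not given in the sources used here. The smallest row of the deposited counts sums to 60 reads across all 6 libraries, which leaves genes at or near 0 unrepresented. The labels pair each treated muscle with a control muscle of the same mouse but do not name the mice, and the test had the group as its only term.

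After TMM scaling, all 13226 genes were fitted in edgeR 4.0.16 (R 4.3.3) with its quasi-likelihood F-test, and Benjamini-Hochberg adjusted p-values under 0.05 were called. The scripts were tested on simulated data. The SE of a log2 fold change was its size over the root of F, and intervals are 95%. CPM per kilobase used the joined exons of GENCODE M21 (GRCm38), and promoters came from RefSeq (GRCm38.p6). No libraries of a group were repeats of each other. Alternatives were DESeq2 1.42.0, the likelihood ratio test, limma-voom (limma 3.58.1), upper-quartile scaling, a minimum of 10 counts, a replicate block and leaving out each muscle. Igfbp5, Irs1 and Igfbp6 promoters were printed for their motif match or log2 fold change.

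The genes, the pathway lists and the marker lists were chosen with earlier results of these data known. Genes named beyond the 10 were Yap1, chosen genes of the pathway lists, the 3 genes with the smallest p in each list, and the 3 genes nearest to Igf1 and to the gene with the largest absolute change. Genes of the marker lists, those with non-overlapping groups and those called by other tools were named after their values were seen.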

Additional observations from a re-analysis of the deposited data

How the results depend on the processing

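Over the 10 genes and the alternatives, 110 of 119 log2 fold changes kept their direction, 9 turned sign (all on leaving out a muscle, where the cause was not tested) and 0 reached the threshold, with a smallest adjusted p of 0.696 in any fit. Leaving out each muscle in turn gave log2 fold changes of -0.35 to -0.028 for Igf1, -0.051 to 0.30 for Igf1r, -0.21 to -0.083 for Insr, -0.34 to -0.00069 for Irs1, -2.26 to 0.67 for Igfbp2, -0.091 to 0.68 for Igfbp3, -0.013 to 0.26 for Igfbp4, -0.084 to 0.13 for Igfbp5, 0.19 to 0.63 for Igfbp6 and -0.027 to 0.13 for Igfbp7. The other signs of Igfbp5 were -0.020 without control muscle 3, -0.038 without Yap-shRNA muscle 2 and -0.026 without Yap-shRNA muscle 3. Yap1 stayed between -1.29 and -0.93.

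The number of genes called was 5 by DESeq2 (Yap1, Rrad, Ccl2, Mir155hg and Hspb7), 5 by the likelihood ratio test (Yap1, Rrad, Ccl2, Mir155hg and Actc1), 0 to 1 on leaving out a muscle (Mir155hg without Yap-shRNA muscle 3) and 0 under every other alternative run. The cause was not tested. With a minimum of 10 counts in every library Igfbp2 was not tested. Igfbp6 had unadjusted p-values of 0.020 in DESeq2 and 0.041 in edgeR's likelihood ratio test, with adjusted p-values near 1.00 in both. With a replicate block edgeR called 0 genes, with 213 at an unadjusted p under 0.05, and log2 fold changes were -0.17 for Igf1, -1.16 for Igfbp2 and 0.33 for Igfbp3. Deviations from the group means of same-numbered muscles had correlations across genes of -0.065, 0.20 and -0.32. Of the 6 muscles, only control muscle 2 correlated best with its own number. These correlations do not settle whether same-numbered muscles share a mouse. Under the block the SE fell from 0.93 to 0.15 for Cish and from 0.28 to 0.13 for Socs2. Both were picked because their values followed the muscle numbers, so this fall was built in and does not bear on pairing. For Socs3 the SE rose from 0.31 to 0.33. Among the 10 genes it rose for Irs1, Igfbp5 and Igfbp6 and fell for the others. Depth limits Igfbp2, at 1 to 37 reads. Genes absent from the deposited table cannot be judged.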

Other observations

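Some genes of growth hormone and Igf1 signalling varied between muscles more than between the groups, a pattern picked after the values were seen. Cish, a feedback inhibitor induced by growth hormone and other cytokines through Stat5, was at 6.15, 43.4 and 4.02 CPM in control muscles 1, 2 and 3 and at 6.63, 43.8 and 6.46 CPM in Yap-shRNA muscles 1, 2 and 3. The muscle numbered 2 was the highest of each group. Over the 6 muscles, 23.6% of all genes peaked in control muscle 2 and 13.2% in Yap-shRNA muscle 2. Socs2, another inhibitor induced by growth hormone, was at 10.1, 18.3 and 10.6 CPM in control and 11.2, 19.3 and 11.5 CPM in Yap-shRNA muscles, with the same muscles on top. Igfals, which stabilises the complex of Igf1 and Igfbp3 in blood, was at 3.97, 7.78 and 4.76 CPM in control and 3.36, 6.22 and 4.39 CPM in Yap-shRNA muscles, again highest in the muscle numbered 2. Igf1 itself was lowest in that muscle in both groups, at 22.0 and 17.0 CPM. The labels do not say whether these muscles came from the same mouse.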
